A study of Homo sapiens with 24 samples.

Results

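Gene expression with the glucocorticoid dexamethasone (Dex) in the presence of the antiandrogen enzalutamide was set against expression with the androgen dihydrotestosterone (DHT) alone, gene by gene. The arrays were chosen by their treatment labels: 3 carried enzalutamide with Dex at 100 nM and 3 carried DHT at 1 nM, which is 6 of the 24 arrays in the study. All cultures were LREX' cells, a human prostate cancer line, kept in charcoal-stripped medium, which is poor in steroids, and exposed for 8 h. The groups used here were enzalutamide with Dex at 100 nM, Dex at 100 nM, enzalutamide with DHT at 1 nM, DHT at 1 nM, enzalutamide at 10 µM, and the DMSO vehicle, with 3 cultures each that the study describes as biological triplicates. The labels state no enzalutamide dose for the combinations. A single line was studied, so the replicate spread is that between cultures of this line. RNA was measured on Illumina expression beadchips, and all levels below are normalized log2 intensities, so that a difference of 1 is a 2-fold difference.

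The androgen receptor and the glucocorticoid receptor are steroid-activated transcription factors of the same family. Each is held by chaperones until its hormone binds, then moves to chromatin, and their DNA-binding domains are similar enough to recognise the same kind of response element. In prostate cells the androgen receptor drives kallikreins, TMPRSS2 and other luminal secretory genes, whereas the glucocorticoid receptor drives genes of stress adaptation, ion transport, the circadian clock and anti-inflammatory feedback. Enzalutamide competes with androgen for the ligand pocket of the androgen receptor and does not block the glucocorticoid receptor. LREX' cells are known as a model in which an enzalutamide-resistant tumour expresses the glucocorticoid receptor. The question addressed by the comparison is how much of the androgen-treated state a glucocorticoid produces while the androgen receptor is blocked. The compared groups differ in steroid, in its dose and in enzalutamide. Percentages and calls below hold for these doses at 8 h, and other doses were not compared here.

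The arrays were of even quality. Median signals of the 24 arrays lay between 59.4 and 69.5, and the 6 compared arrays detected between 20083 and 20529 probes. Of 12 prostate luminal markers with a probe, 10 were detected on all 3 arrays of each group, among them EPCAM, FOXA1 and HOXB13. The basal keratins KRT5, KRT14 and KRT15 were not detected on any of the 6 arrays, and nor were the neuroendocrine markers CHGA, CHGB and SYP. The basal marker ITGA6 was detected on all 3 arrays of each group, and DST on 1 array with enzalutamide plus Dex. The neuroendocrine marker INSM1 was detected on 1 of 3 arrays with enzalutamide plus Dex and on 3 of 3 with DHT. Of 11 stromal and endothelial markers, the smooth muscle actin gene ACTA2 was higher with enzalutamide plus Dex (log2 difference 1.07) and VWF was lower (-0.47), a call lost without the third DHT array (adjusted p = 0.0594); both were picked out after their values were seen. COL1A1 and VIM, like ACTA2 and VWF, were detected on all 3 arrays of each group, and COL1A2, DCN and LUM on some arrays only. COL3A1, DES, PECAM1 and CDH5 were not detected. The summed linear level of the 7 markers in the fit was 1052 to 1135 with enzalutamide plus Dex and 1001 to 1105 with DHT. Of 7 immune markers with a probe, only CD68 was detected on all 3 arrays of each group. The part of such cells in the results was not tested. The cultures were measured in bulk, so fewer cells of a kind and less RNA per cell cannot be told apart.

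Enzalutamide with Dex and DHT alone left most genes at similar levels and separated a limited set. A linear model over all 24 arrays (limma, Benjamini-Hochberg adjusted p under 0.05, here "called") found 330 of 12895 genes different, a share of 2.56%. Of these, 164 were higher with enzalutamide plus Dex (1.27% of genes) and 166 were lower (1.29%). Only 37 of the called genes differed by at least 2-fold, 21 higher and 16 lower. Among all genes, 2075 (16.1%) had arrays that did not overlap between the groups, 951 higher (7.37%) and 1124 lower (8.72%). By interval, 10603 genes (82.2%) had levels alike, meaning that the 95% interval of the difference lay within 1.5-fold either way. Scaling each array by its median over all probes gave a different split, with 81 higher and 135 lower. Fitting the 6 compared arrays alone gave 104 calls, of which 100 were among the 330.

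The androgen response itself was read from DHT against vehicle, and the glucocorticoid response under androgen receptor blockade from enzalutamide plus Dex against enzalutamide. These comparisons share no array. Enzalutamide plus Dex changed 439 genes against enzalutamide (3.4%), of which 287 rose (2.23%) and 152 fell (1.18%). DHT changed 548 genes against vehicle (4.25%), of which 316 rose (2.45%) and 232 fell (1.8%). With median scaling over all probes the DHT split was 206 higher and 234 lower. Of the 548 genes that DHT changed, 195 (35.6%) were also called, in the same direction, with enzalutamide plus Dex, 3 were called in the opposite direction, and 350 were called with DHT alone (230 without the second vehicle array). A further 241 genes were called with enzalutamide plus Dex and not with DHT. A call in 1 comparison and not in the other does not show that the responses differ, and the difference of the responses was tested separately: it was called for 141 genes (1.09%), 72 with the larger value under enzalutamide plus Dex (0.558%) and 69 with the smaller (0.535%).

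Direction was shared more widely than significance. Of the 548 DHT-changed genes, 455 (83%) moved the same way with enzalutamide plus Dex, against 6823 of the 12347 genes not called with DHT (55.3%). The size of the enzalutamide plus Dex response, as a percentage of the DHT response, had a median of 47% over the 548 genes, with quartiles of 14.7% and 80.9%. These genes were selected on their DHT response, which is the denominator, so the selection itself lowers the percentage and it is given as a description. In the opposite selection, 195 of the 439 genes called with enzalutamide plus Dex (44.4%) were called the same way with DHT. The median was 57.4% for the 316 genes that DHT raised and 41.6% for the 232 that it lowered. Across all 12895 genes the responses had a Pearson correlation of 0.41 and a Spearman correlation of 0.19; across the 789 genes called in either, these were 0.67 and 0.65. Genes are not independent replicates, and these correlations describe the arrays without a test.

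**Figure D1:**
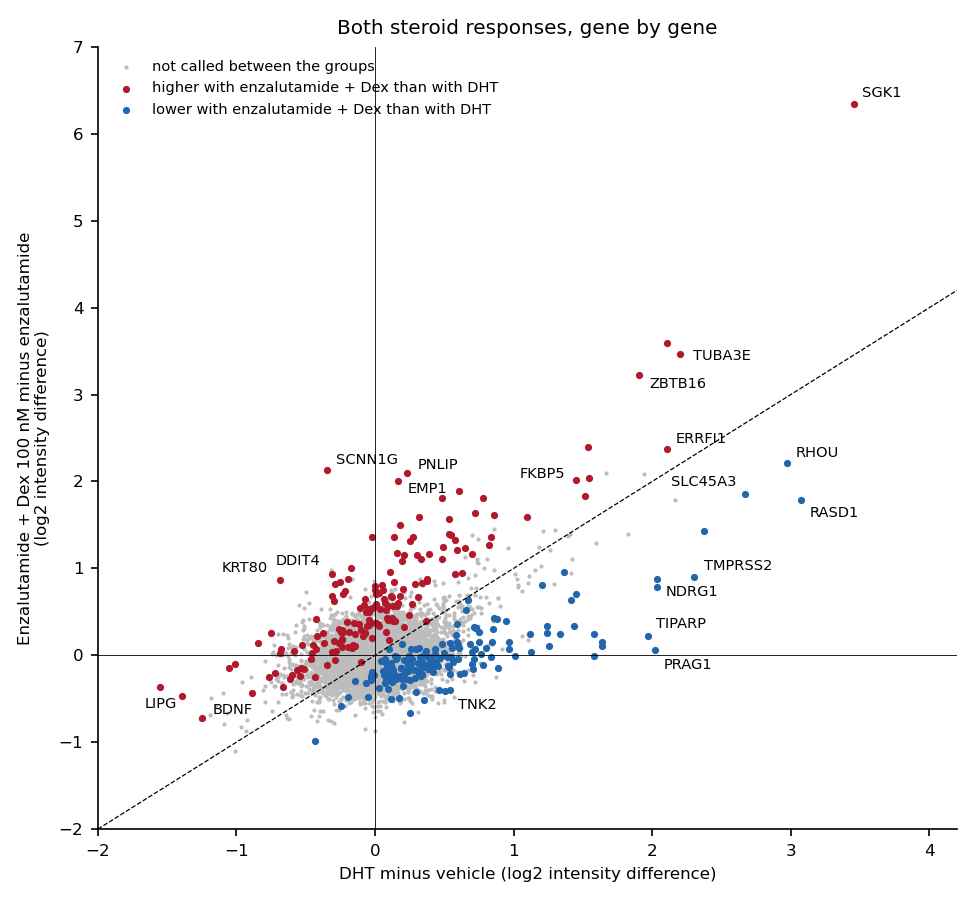
Each point is a gene, with its log2 response to DHT (DHT minus vehicle) on the x axis and its log2 response to enzalutamide plus Dex (minus enzalutamide) on the y axis. Red and blue points were called higher or lower with enzalutamide plus Dex than with DHT, and the dashed line marks equal responses. SGK1 stands far above the line, and SCNN1G, PNLIP and EMP1 rise along the vertical axis with little DHT response. TIPARP and PRAG1, the latter by its brighter probe, lie near the horizontal axis.

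The genes that DHT changed most were compared between the treatments as a description. They were selected on the same DHT arrays that enter the comparison, and that selection favours lower values with enzalutamide plus Dex among raised genes and higher ones among lowered genes. Of the 60 genes that DHT raised at least 2-fold, 10 were called higher with enzalutamide plus Dex than with DHT and 25 lower. The other 25 were not called, and 22 of the 60 had levels alike. Over all genes, 1.27% were called higher, 1.29% were called lower and 82.2% had levels alike. The median response of the 60 genes to enzalutamide plus Dex was 74.9% of the DHT response. In the opposite selection, enzalutamide plus Dex raised 69 genes at least 2-fold against enzalutamide. Of these, 48 were called with DHT, as were 4.25% of all genes. Of the 13 genes that DHT lowered at least 2-fold, 5 were higher with enzalutamide plus Dex, 0 were lower, and 3 had levels alike, NR3C1, BAMBI and SYTL2, with a median response of 50.6%.

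**Figure D2:**
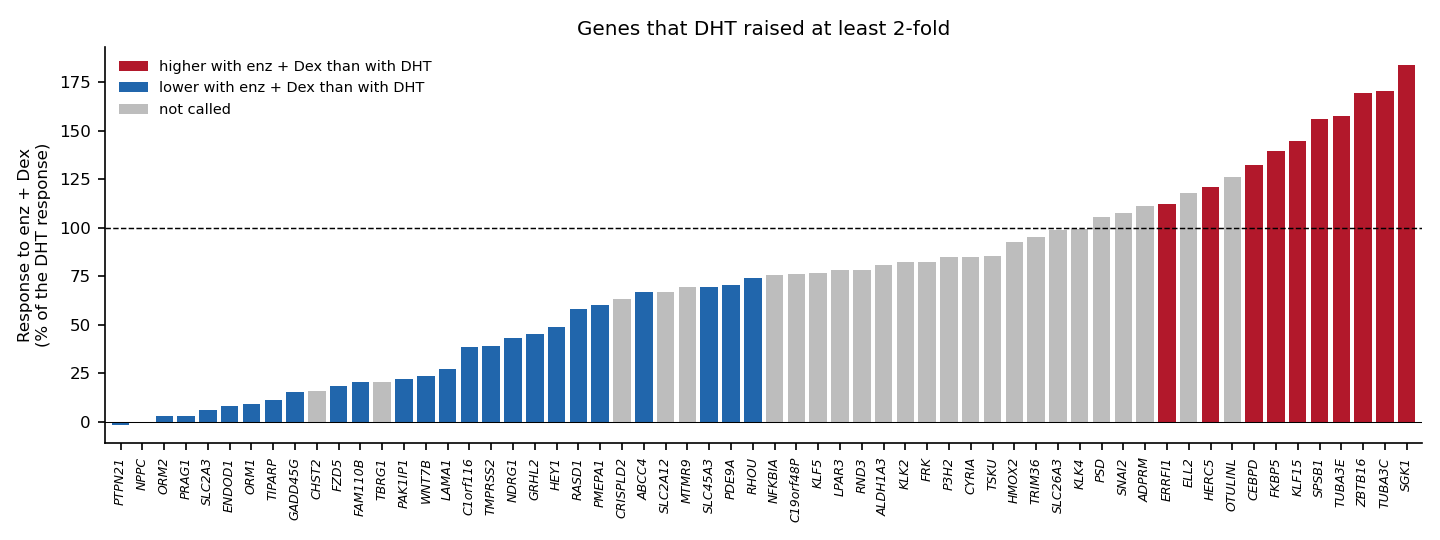
Bars give, for each of the 60 genes that DHT raised at least 2-fold, the log2 response to enzalutamide plus Dex as a percentage of the log2 response to DHT. Red, blue and grey mark genes higher (10), lower (25) or not called (25) with enzalutamide plus Dex against DHT. The bars run from -1.33% for PTPN21, named here only as the lowest bar, to 184% for SGK1; for genes not above background without steroid, such as SNAI2 and ZBTB16, they show fitted values with no exact size.

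The largest rise was that of SGK1, the serum- and glucocorticoid-regulated kinase, which promotes epithelial sodium transport and shares substrates with AKT. SGK1 read 11.96, 11.97 and 12.04 on the enzalutamide plus Dex arrays, against 9.34, 9.57 and 9.37 on the DHT arrays. It read 5.78, 5.27 and 5.88 with enzalutamide and 6.10, 5.83 and 5.99 with vehicle. The groups did not overlap: each steroid had raised SGK1 strongly from its own baseline, and the glucocorticoid arrays were the higher. SGK1 was 5.92-fold higher with enzalutamide plus Dex than with DHT (log2 difference 2.57 ± 0.12 SE, adjusted p = 3.08e-11), after a response of 6.35 to enzalutamide plus Dex and 3.46 to DHT. Its other 2 probes differed by 2.65 and 2.62. SCNN1G, the gamma subunit of the epithelial sodium channel that SGK1 protects from degradation, read 7.52, 7.67 and 7.39 with enzalutamide plus Dex, against 5.36, 5.03 and 5.10 with DHT. It was 5.13-fold higher (2.36 ± 0.13, adjusted p = 6.94e-10), and it was not called with DHT against vehicle (log2 -0.34).

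Of the 164 genes higher with enzalutamide plus Dex, 71 had risen against enzalutamide without a DHT call. Among all 12895 genes, 143 did so. The same enzalutamide plus Dex arrays enter both calls, which favours this overlap. A further 30 of the 164 were called in neither steroid response. Several of the 71 were near or below background with DHT. PNLIP, pancreatic lipase, read 6.55, 6.78 and 6.51 with enzalutamide plus Dex and 4.64, 4.58 and 4.75 with DHT, where it was not detected on any array. It was therefore at least 3.02-fold higher (adjusted p = 1.14e-10). FAXDC2, a fatty acid hydroxylase family gene, read 6.38, 6.20 and 6.33 with enzalutamide plus Dex and 4.79, 4.95 and 4.66 with DHT; it was detected on 3 of 3 arrays with enzalutamide plus Dex and on 0 of 3 with DHT, and was at least 2.44-fold higher (adjusted p = 6.69e-06). EMP1, an epithelial membrane protein of cell junctions, read 6.85, 7.05 and 7.10 with enzalutamide plus Dex, against 5.23, 5.38 and 5.16 with DHT (1.74 ± 0.17, adjusted p = 1.64e-06). C9orf152 read 7.95, 8.02 and 8.08 against 6.65, 6.66 and 6.44 with DHT (1.43 ± 0.09, adjusted p = 6.9e-09). In all 4 genes the lowest enzalutamide plus Dex array lay more than 1 log2 unit above the highest DHT array. HTR3A, a serotonin-gated ion channel, was another gene called with enzalutamide plus Dex (1.89) and not with DHT (0.60); its difference from DHT (0.93, adjusted p = 0.0111) was no longer called without the first DHT array or the second enzalutamide plus Dex array, with adjusted p up to 0.0827.

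Some of the other leading rises were called with both steroids. ZBTB16, a zinc finger repressor known as a glucocorticoid target in many tissues, read 7.62, 7.86 and 7.66 with enzalutamide plus Dex, against 6.59, 6.57 and 6.54 with DHT, and 4.50, 4.48 and 4.49 with enzalutamide. It was called with each steroid, but the probe was detected on no enzalutamide or vehicle array, so these responses have no exact size. The difference between the treatments was 1.15 ± 0.13 (adjusted p = 7.25e-06). The alpha-tubulin genes TUBA3E (1.35) and TUBA3C (1.29) also rose with both and further with enzalutamide plus Dex, but they are near-identical copies that probes may not separate. RGS2, a regulator of G-protein signalling, was higher by 1.20 ± 0.12 (adjusted p = 1.18e-06) with a response of 1.32 to enzalutamide plus Dex and of 0.25, not called, to DHT. PGLYRP2 (1.28) and TSPAN12 (1.11) were likewise not called with DHT. SLC25A18 (1.39) was called with both steroids, with responses of 1.81 to enzalutamide plus Dex and 0.49 to DHT (adjusted p = 0.0329). Its DHT call was lost without any single vehicle array or the third DHT array (adjusted p up to 0.201). The 15 largest rises were completed by KRT80 and DDIT4, which the steroids moved in opposite directions.

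The genes that enzalutamide plus Dex lowered most without a DHT call were mostly not called between the treatments. DNAAF9, a factor of cilia assembly, APOL2, an apolipoprotein L family gene, SLFN5, a schlafen family gene, RTN4R, the Nogo receptor, and TNS3, a tensin of focal adhesions, fell by 0.66 to 0.87 on the log2 scale against enzalutamide. Of these 5, only TNS3 was called against DHT (-0.79, adjusted p = 0.00279). It read 5.49, 5.44 and 5.61 with enzalutamide plus Dex and 6.59, 6.21 and 6.10 with DHT, which did not overlap. The call against enzalutamide held for RTN4R when any single array was left out, and was lost for TNS3 without the second enzalutamide array (adjusted p = 0.0719), and for SLFN5 without the first enzalutamide array or the third enzalutamide plus Dex array (up to 0.0733). For DNAAF9 it was lost without the third enzalutamide array or the first or the third enzalutamide plus Dex array (up to 0.137), and for APOL2 without the first or second array of either group (up to 0.133).

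Promoter windows of the called genes were searched for the hexamer AGAACA, or TGTTCT on the other strand, which is the core of the response element that both receptors bind. Windows ran from 250 bases before to 50 bases after the annotated start, from RefSeq on GRCh38.p14. The hexamer was present in 14.8% of 35116 windows, and in 13.1% of the 10228 tested genes with a window. It was present in 22 of 129 genes higher with enzalutamide plus Dex (17.1%), in 11 of 134 lower (8.21%) and in 19 of 153 that both steroids changed the same way (12.4%). The full palindrome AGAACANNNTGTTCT was in 1 window in all and in none of these genes. Windows with the hexamer are shown for the 4 named genes that had one and were called higher with enzalutamide plus Dex by at least 0.5, each on the minus strand, with the hexamer in capitals. The SGK1 window, from 1 of its several starts, lies at chr6:134177812-134178111 and has the hexamer just inside the transcript. The C9orf152 window lies at chr9:110208110-110208409, with the hexamer 105 bases upstream of the start, the STK39 window lies at chr2:168247546-168247845, with the hexamer 112 bases upstream, and the FKBP5 window lies at chr6:35728534-35728833, with the hexamer at the start.
SGK1: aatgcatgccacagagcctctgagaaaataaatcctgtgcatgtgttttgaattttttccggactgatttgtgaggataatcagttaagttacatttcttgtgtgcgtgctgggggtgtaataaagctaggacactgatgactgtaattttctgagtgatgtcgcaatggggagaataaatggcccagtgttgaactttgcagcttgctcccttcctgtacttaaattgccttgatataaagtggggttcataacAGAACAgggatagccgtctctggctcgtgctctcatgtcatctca
C9orf152: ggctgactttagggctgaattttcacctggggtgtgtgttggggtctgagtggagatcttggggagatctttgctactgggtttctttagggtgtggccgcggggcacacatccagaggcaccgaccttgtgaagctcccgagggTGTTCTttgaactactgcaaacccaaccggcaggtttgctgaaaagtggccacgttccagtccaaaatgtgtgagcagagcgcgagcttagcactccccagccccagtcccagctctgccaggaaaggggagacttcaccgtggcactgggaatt
STK39: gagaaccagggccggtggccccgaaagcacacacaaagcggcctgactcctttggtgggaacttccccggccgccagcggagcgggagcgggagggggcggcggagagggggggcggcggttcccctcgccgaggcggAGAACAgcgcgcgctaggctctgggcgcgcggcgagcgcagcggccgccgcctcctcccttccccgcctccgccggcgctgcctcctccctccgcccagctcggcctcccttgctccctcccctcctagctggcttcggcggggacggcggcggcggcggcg
FKBP5: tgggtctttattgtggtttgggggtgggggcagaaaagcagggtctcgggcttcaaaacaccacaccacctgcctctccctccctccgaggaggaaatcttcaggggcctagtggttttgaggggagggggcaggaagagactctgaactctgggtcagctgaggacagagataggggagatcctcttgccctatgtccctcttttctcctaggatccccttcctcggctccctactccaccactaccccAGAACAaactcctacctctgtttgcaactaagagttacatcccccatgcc
A match is a description of these letters and not a binding site.

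**Figure D3:**
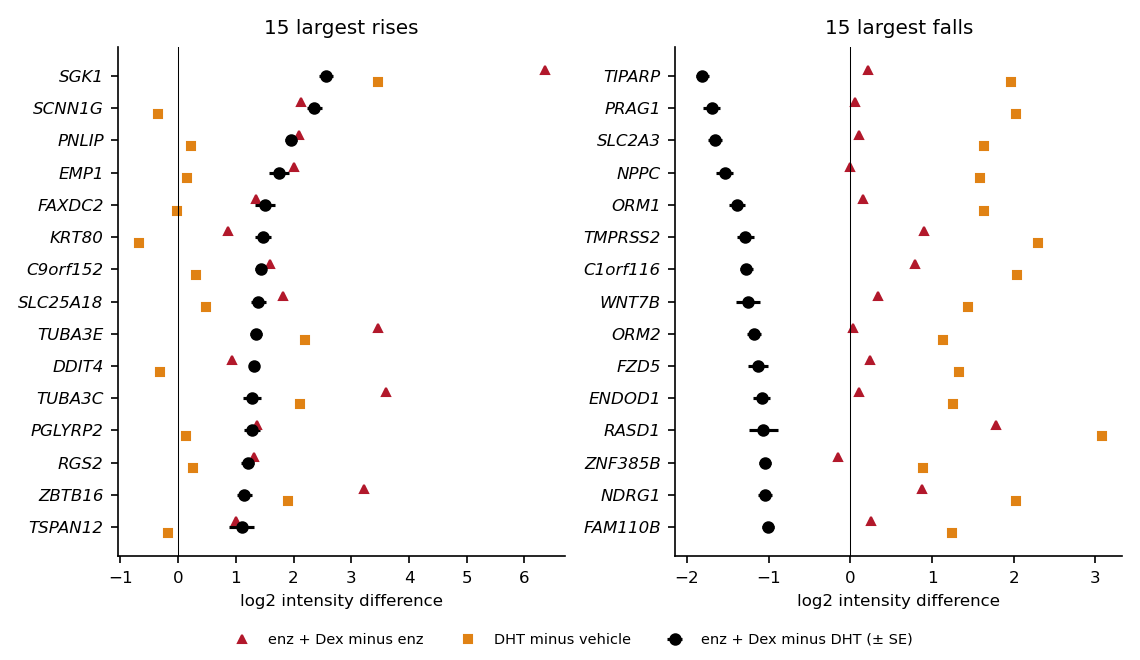
Black points show the log2 difference between enzalutamide plus Dex and DHT with its standard error for the 15 largest rises (left) and the 15 largest falls (right). Red triangles give the response to enzalutamide plus Dex (against enzalutamide) and orange squares the response to DHT (against vehicle), from 3 arrays per group. Among the rises, SGK1, TUBA3E, TUBA3C, ZBTB16 and SLC25A18 combine a called rise with DHT and a larger rise with enzalutamide plus Dex. The falls other than TMPRSS2, C1orf116, RASD1 and NDRG1 have no called response to enzalutamide plus Dex.

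Of the 166 genes lower with enzalutamide plus Dex, 77 had risen with DHT and were not called with enzalutamide plus Dex against enzalutamide. Among all 12895 genes, 173 did so. The same DHT arrays enter both calls, which favours this overlap. A further 52 of the 166 were called in neither steroid response. The largest fall was that of TIPARP, an ADP-ribosyltransferase that limits aryl hydrocarbon receptor signalling. TIPARP read 7.99, 8.04 and 8.08 with enzalutamide plus Dex, against 9.79, 9.84 and 9.91 with DHT, and it read 7.74, 7.76 and 7.95 with enzalutamide. The enzalutamide plus Dex arrays thus lay just above the enzalutamide baseline and did not overlap with the DHT arrays. The fall was 3.51-fold (log2 difference -1.81 ± 0.08, adjusted p = 3.08e-11), with a response of 0.22, not called, to enzalutamide plus Dex (adjusted p = 0.189) and of 1.97 to DHT. PRAG1, a pseudokinase scaffold, read 6.49, 6.56 and 6.45 with enzalutamide plus Dex and 7.98, 8.37 and 8.24 with DHT (-1.70 ± 0.10, adjusted p = 1.64e-09). On this probe the response to enzalutamide plus Dex was 3.04% of the DHT response. A second, dimmer PRAG1 probe differed by -1.19, with responses of 0.59 to enzalutamide plus Dex and 1.63 to DHT. The size of the PRAG1 response to enzalutamide plus Dex thus depends on the probe.

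SLC2A3, the high-affinity glucose transporter GLUT3, read 4.67, 4.42 and 4.48 with enzalutamide plus Dex, against 6.28, 6.11 and 6.13 with DHT. It was detected on no array with enzalutamide plus Dex, so it was at least 2.21-fold lower there (adjusted p = 1.47e-10). NPPC, which encodes C-type natriuretic peptide, was also detected on no enzalutamide plus Dex array and on all 3 DHT arrays, and was at least 2.04-fold lower (adjusted p = 1.75e-08). ORM2, a plasma carrier protein, was detected on no enzalutamide plus Dex array and was at least 1.54-fold lower (adjusted p = 4.57e-08). Its near-identical copy ORM1, whose probe may share transcripts, read 4.50, 5.04 and 4.67 with enzalutamide plus Dex, where 1 of 3 arrays detected it, against 6.07, 6.06 and 6.23 with DHT (adjusted p = 1.75e-08). WNT7B, a WNT ligand (-1.26), and FZD5, a WNT receptor (-1.13), also fell. FZD5 read 6.90, 6.88 and 6.39 with enzalutamide plus Dex, against 7.69, 7.73 and 8.14 with DHT, which did not overlap. ENDOD1 (-1.09), ZNF385B (-1.05) and FAM110B (-1.01) had responses to enzalutamide plus Dex that were not called.

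TMPRSS2, the androgen-driven luminal protease, was among the falls as well, although it responded to both steroids. It read 8.78, 8.83 and 8.58 with enzalutamide plus Dex, against 10.05, 10.08 and 9.91 with DHT, with 7.81, 7.75 and 7.91 with enzalutamide alone. The enzalutamide plus Dex arrays lay between the baseline and the DHT arrays and overlapped neither. TMPRSS2 was 2.44-fold lower than with DHT (-1.29 ± 0.11, adjusted p = 1.43e-07), and its response was 0.91 to enzalutamide plus Dex and 2.30 to DHT, or 39.3%. The intermediate pattern was shared by C1orf116, an androgen-regulated epithelial gene (38.7%), NDRG1, a differentiation and stress gene (43%), GRHL2, an epithelial transcription factor (45.3%), RASD1, a Ras-like G protein (58%), and PMEPA1, a feedback inhibitor of TGF-beta signalling (60%). Each of these 5 genes was called with both steroids against its own baseline and called lower with enzalutamide plus Dex than with DHT, by 0.95 to 1.27 on the log2 scale. SLC45A3, the prostate marker prostein, read 8.81, 8.72 and 8.67 with enzalutamide plus Dex and 9.46, 9.55 and 9.54 with DHT (-0.79 ± 0.07, adjusted p = 1.87e-07), with 69.6% of the DHT response. RHOU, an atypical small GTPase, had 74.3% of its DHT response and was lower by 0.69 (adjusted p = 2.32e-05).

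Of the kallikreins, secreted serine proteases and the best known androgen targets of the prostate, KLK4 had levels alike, and KLK2 and KLK3 were not called. KLK4 read 10.71, 10.68 and 10.76 with enzalutamide plus Dex, against 10.73, 10.59 and 10.52 with DHT, and 9.40, 9.11 and 9.43 with enzalutamide. The groups overlapped, and the 95% interval of the difference ran from -0.09 to 0.29. Its response was 1.40 to enzalutamide plus Dex and 1.41 to DHT, or 99.3%. KLK2 read 6.17, 6.57 and 6.34 with enzalutamide plus Dex and 6.74, 6.88 and 6.80 with DHT; every DHT array was the higher, but the difference was not called (-0.45, adjusted p = 0.11, interval -0.74 to -0.16), and the interval does not show that the levels are alike. KLK3, which encodes prostate-specific antigen, was near background here, being detected on 1 of 3 arrays with enzalutamide plus Dex and 2 of 3 with DHT, and gave no call (-0.21, adjusted p = 0.853).

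Among the genes that DHT changed at least 2-fold, several had levels alike under both treatments. ERRFI1, a feedback inhibitor of the EGF receptor, read 11.31, 11.48 and 11.53 with enzalutamide plus Dex, against 10.90, 11.11 and 11.10 with DHT, from 9.02 to 9.15 with enzalutamide. It had the largest DHT response (2.11) among the genes with levels alike, with an interval of 0.23 to 0.58, and was still called higher (0.40, adjusted p = 0.00957); that call was lost without the first DHT array or the third enzalutamide plus Dex array (adjusted p up to 0.0737). SNAI2, the transcriptional repressor SLUG, read 6.59, 6.62 and 6.47 with enzalutamide plus Dex and 6.41, 6.33 and 6.53 with DHT, and was detected on no enzalutamide or vehicle array. Its groups overlapped, with an interval of -0.03 to 0.30. It was at least 2.89-fold higher with enzalutamide plus Dex than with enzalutamide, and at least 2.65-fold higher with DHT than with vehicle. ALDH1A3, a retinaldehyde dehydrogenase, read 7.74, 8.06 and 7.68 with enzalutamide plus Dex and 8.04, 8.02 and 7.81 with DHT, again overlapping (interval -0.44 to 0.17). LPAR3, a lysophosphatidic acid receptor, SLC26A3, a chloride-bicarbonate exchanger, TRIM36, a ubiquitin ligase, and ADPRM, an ADP-ribose phosphatase, had intervals within 0.43 of 0. The response was 78.2% of that to DHT for LPAR3 and 111% for ADPRM. CEBPD, a C/EBP transcription factor (0.37), HERC5, the ligase for the ubiquitin-like ISG15 (0.34), and PDE9A, a cyclic GMP phosphodiesterase (-0.31), were alike within 1.5-fold and yet called. The call for CEBPD was lost without any of 4 of the 6 arrays, the first and the third of each group, with adjusted p up to 0.089. For PDE9A it was lost without the first or second DHT array or the second or the third enzalutamide plus Dex array, with adjusted p up to 0.137.

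**Figure D4:**
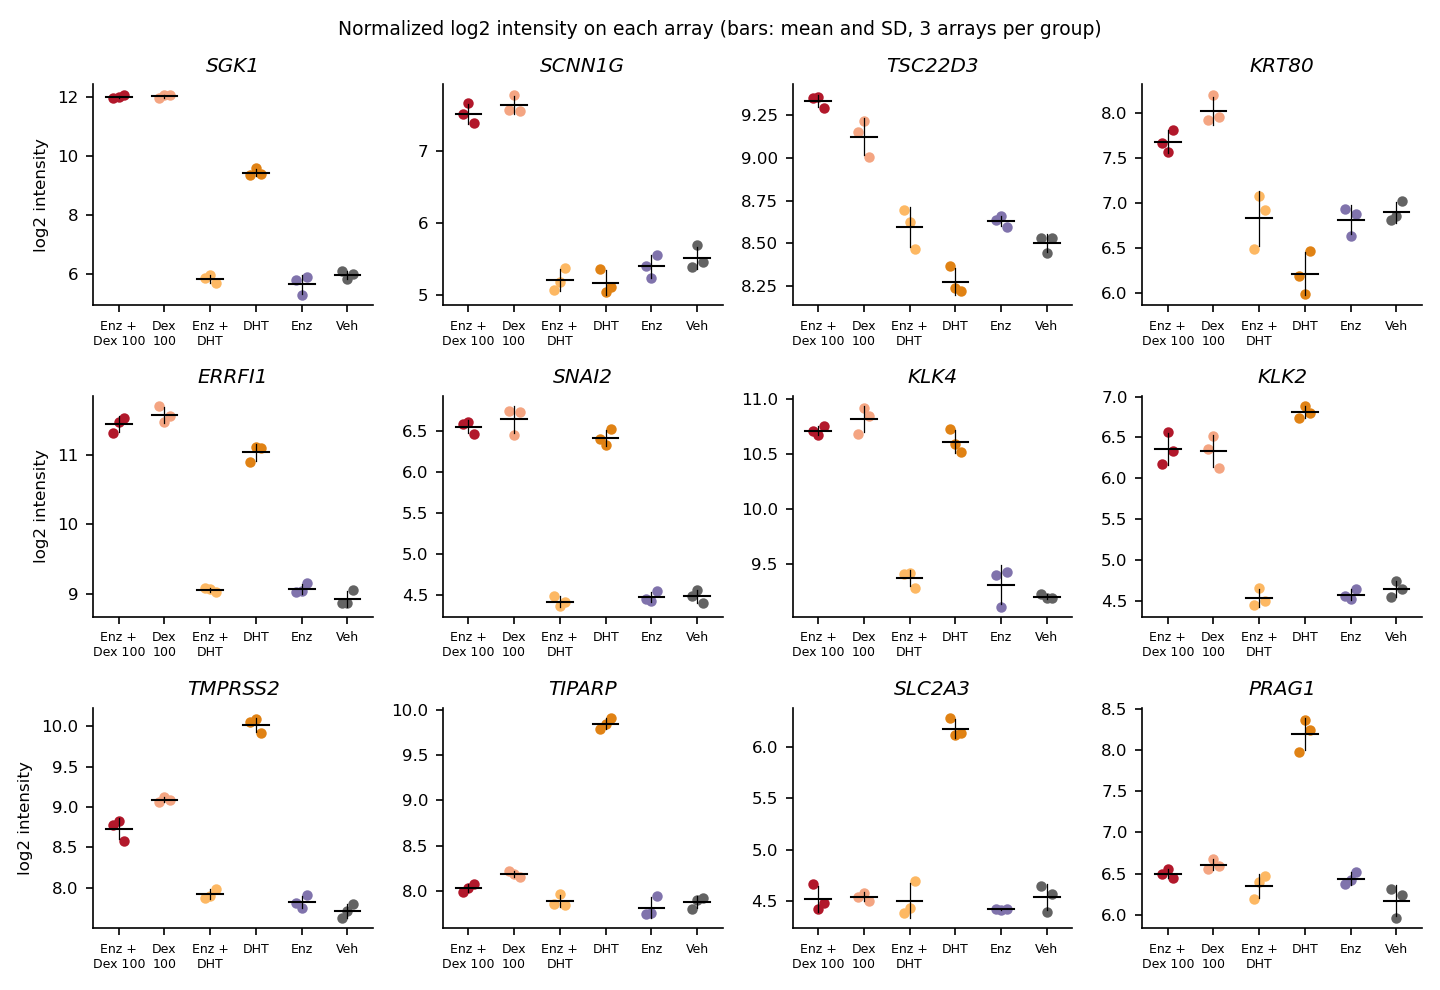
Points are the normalized log2 intensities of single arrays for 12 genes in 6 groups, with enzalutamide plus Dex 100 nM at the left and vehicle at the right, and lines give the mean and SD of 3 arrays. SGK1, SCNN1G, TSC22D3 and KRT80 are highest with Dex, ERRFI1, SNAI2, KLK4 and KLK2 are raised by both steroids to levels within 0.45 of each other, and TMPRSS2, TIPARP, SLC2A3 and PRAG1 are highest with DHT alone. The y axes differ between genes and do not start at 0.

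Genes that DHT lowered at least 2-fold were either higher with enzalutamide plus Dex or not called, a balance that their selection on the DHT arrays favours. LIPG, endothelial lipase, read 9.19, 9.06 and 9.13 with enzalutamide plus Dex, against 8.32, 8.22 and 8.12 with DHT, from 9.47, 9.45 and 9.56 with enzalutamide and 9.78, 9.75 and 9.78 with vehicle. No group overlapped another, and the enzalutamide plus Dex arrays were nearest to enzalutamide alone. The difference of 0.91 ± 0.07 was called (adjusted p = 7e-08), and the response was 23.6% of that to DHT. NAPEPLD, an enzyme of N-acylethanolamine synthesis, showed the same order, with a difference of 0.78 (adjusted p = 3.04e-06) and 33.3% of the response. SYTL2, a vesicle-trafficking gene, had levels alike (interval 0.05 to 0.44), and BAMBI, a TGF-beta pseudoreceptor, had 72.5% of the response and no call (0.29, adjusted p = 0.126). NR4A2, an orphan nuclear receptor that DHT had changed by -1.18, was not called between the treatments (0.48, adjusted p = 0.156). For BDNF, brain-derived neurotrophic factor, the brightest probe was higher by 0.43 (adjusted p = 0.0135) but its other 3 probes differed by only 0.07 each; the call was lost without the second or the third DHT array or the third enzalutamide plus Dex array (adjusted p up to 0.0951). NR3C1, the glucocorticoid receptor gene itself, read 5.48, 5.09 and 5.90 with enzalutamide plus Dex and 5.80, 5.32 and 5.67 with DHT, which overlap, against 6.55, 6.40 and 6.80 with enzalutamide and 6.71, 6.52 and 6.58 with vehicle. Both treatments lowered this probe, by 1.10 and 1.01 on the log2 scale. A second, dimmer NR3C1 probe changed by 0.16 with enzalutamide plus Dex and by -0.07 with DHT.

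Only 3 genes were called in opposite directions by the steroids, a count that ran from 1 to 6 when single arrays were left out or the processing was changed. KRT80, an epithelial keratin, read 7.66, 7.57 and 7.81 with enzalutamide plus Dex, against 6.18, 5.98 and 6.46 with DHT, and between 6.63 and 7.02 on the enzalutamide and vehicle arrays. The treated groups lay on either side of their baselines without touching them, and the difference between the treatments was 1.47 ± 0.14 (adjusted p = 1.55e-06). DDIT4, a stress-induced inhibitor of mTORC1, was raised by enzalutamide plus Dex (0.94) and lowered by DHT (-0.31), and read 11.93, 11.95 and 11.84 with enzalutamide plus Dex, against 10.62, 10.49 and 10.66 with DHT (1.32 ± 0.08, adjusted p = 1.57e-09). TNK2, the ACK1 tyrosine kinase, was lowered by enzalutamide plus Dex (-0.40) and raised by DHT (0.54), with a difference of -0.91 (adjusted p = 9.52e-06); its second, dimmer probe differed by -0.19. The second, dimmer probe of KRT80 differed by 0.50 and moved by -0.14 with DHT. The difference of the responses was called for all 3 (adjusted p = 0.00015 for KRT80, 9.84e-07 for DDIT4 and 0.000948 for TNK2), but the opposite directions rest on small responses. The DHT call was lost for KRT80 without the second DHT array (adjusted p = 0.0507) or with the mean of its probes (0.0876), and for DDIT4 without the first or second vehicle or DHT array (adjusted p up to 0.152). The enzalutamide plus Dex call for TNK2 was lost without any enzalutamide array or the second or the third enzalutamide plus Dex array (adjusted p up to 0.147).

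Of the known androgen targets, those called between the treatments were more often lower with enzalutamide plus Dex than higher. Of 31 measured genes that androgen induces in prostate cells, 15 rose with enzalutamide plus Dex against enzalutamide (2.23% of all genes). With DHT against vehicle, 17 of the 31 rose (2.45% of all genes) and 1 fell (1.8%). Between the treatments, 2 were called higher and 8 lower, where 1.27% and 1.29% of all genes were, and 21 were not called; their median log2 difference was -0.21, against -0.01 over all genes. The 8 were ORM1, TMPRSS2, C1orf116, NDRG1, PMEPA1 and SLC45A3, described above, with the efflux pump ABCC4 (-0.45) and the luminal transcription factor SPDEF (-0.29). ABCC4 lost its call without the first or second enzalutamide plus Dex array or the second or the third DHT array (adjusted p up to 0.119), and SPDEF without the third enzalutamide plus Dex array or the first or second DHT array (up to 0.11). The 2 higher were FKBP5 and the lipid phosphatase PLPP1, which was picked out with ABCC4 and SPDEF after the values were seen. PLPP1 was higher by 1.03 ± 0.07 (adjusted p = 1.69e-08), with a 2.83-fold response to enzalutamide plus Dex and no call with DHT (log2 0.18). FKBP5, a co-chaperone that both receptors induce and that dampens glucocorticoid receptor signalling, read 11.69, 11.33 and 11.46 with enzalutamide plus Dex and 10.87, 10.94 and 11.02 with DHT (0.55 ± 0.08, adjusted p = 0.000324). Of 13 measured androgen-repressed genes, only DDC was called between the treatments (0.24), and it lost the call without 4 of the 6 arrays, the first of each group, the second enzalutamide plus Dex array and the third DHT array (adjusted p up to 0.161).

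Known glucocorticoid targets were mostly higher with enzalutamide plus Dex than with DHT. Of 31 measured genes, 20 were called higher (1.27% of all genes), 1 lower (TIPARP; 1.29% of all genes) and 10 were not called, with a median difference of 0.54 against -0.01 over all genes. The list was chosen with earlier results of these arrays known, and FKBP5 and several other genes are on more than 1 list. Against their own baselines, 24 of the 31 rose with enzalutamide plus Dex (2.23% of all genes). With DHT, 14 rose (2.45% of all genes) and 1, DDIT4, fell (1.8%). Under the alternatives of processing the count of higher members ran from 15, with median scaling over all probes, to 21, with normexp offset 50. TSC22D3, the anti-inflammatory mediator GILZ, read 9.35, 9.36 and 9.29 with enzalutamide plus Dex, against 8.36, 8.24 and 8.22 with DHT, with 8.64, 8.66 and 8.60 with enzalutamide. No arrays overlapped, and the difference was 1.06 ± 0.08 (adjusted p = 3.83e-08; 1.04 on its second probe). DUSP1, a phosphatase that switches off MAP kinases, was higher by 0.58 (adjusted p = 0.000473), HSD11B2, which inactivates cortisol, by 0.78 (adjusted p = 8.75e-07), and FOXO3, a forkhead factor of starvation responses, by 0.54 (adjusted p = 8.96e-06). The list shares SGK1, SCNN1G, DDIT4, RGS2, ZBTB16, FKBP5, ERRFI1 and CEBPD with the results above.

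**Figure D5:**
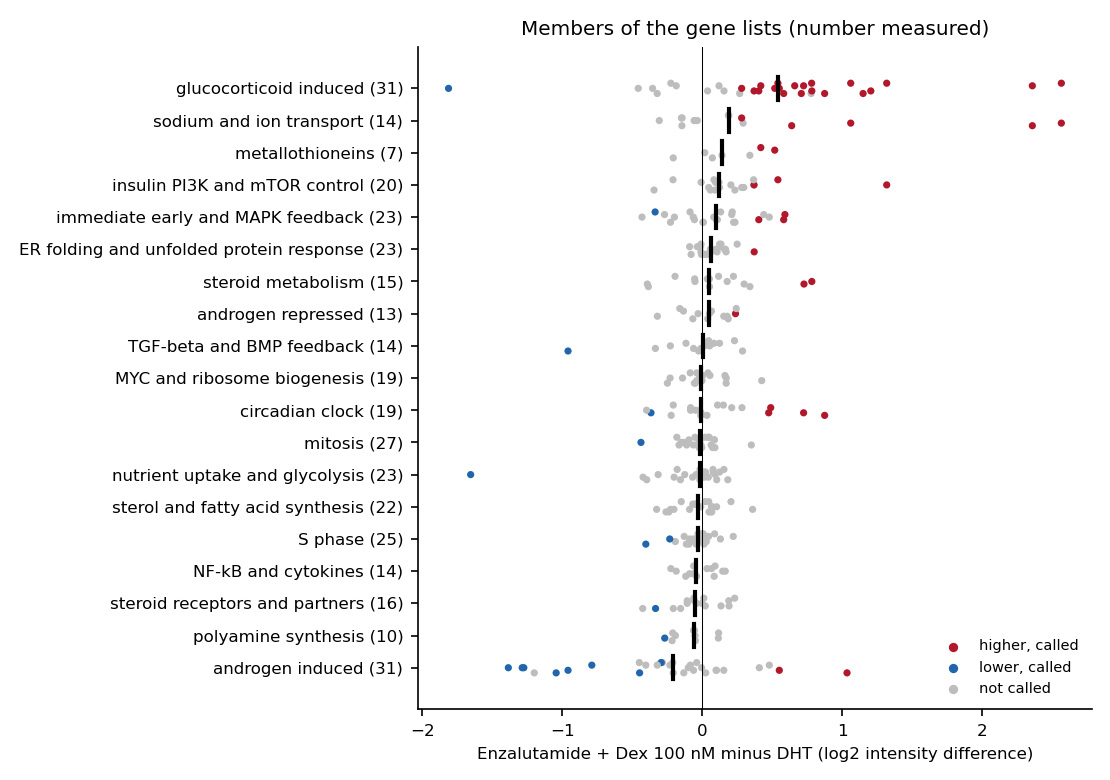
Points are the measured members of 19 gene lists by their log2 difference between enzalutamide plus Dex and DHT, coloured red or blue where called, and black bars mark the median of each list. The glucocorticoid-induced list lies mostly to the right (20 of 31 called higher), the androgen-induced list leans left (8 of 31 called lower), and the medians of the lists for cell division, MYC targets and sterol synthesis lie close to 0, with members on both sides and 3 cell-division genes called lower.

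In related gene groups a minority of members was called, against 1.27% of all genes called higher and 1.29% lower. The groups are not separate, as SGK1, SCNN1G, TSC22D3, SCNN1A, CRY2 and PER1 are also on the glucocorticoid list. Of 14 measured genes of sodium and ion transport, 5 were higher and 0 lower: SGK1, SCNN1G, TSC22D3, STK39 and the alpha subunit gene SCNN1A (0.28), which like NFIL3 was named after its values were seen. STK39, the SPAK kinase that activates sodium-chloride cotransport, read 11.71, 11.70 and 11.59 with enzalutamide plus Dex and 11.04, 10.99 and 11.05 with DHT (0.64 ± 0.08, adjusted p = 2.45e-05). Of 19 clock genes, 4 were higher and 1, NFIL3, was lower (-0.37). CRY2, a clock repressor, was higher by 0.72 (adjusted p = 6.66e-05). The other 3 higher clock genes were PER1 (0.87), PER2 (0.47) and TEF (0.49), and each lost its call when single arrays were left out. PER1 was at the threshold (adjusted p = 0.0493) with enzalutamide plus Dex arrays at 5.94, 5.44 and 6.56 and DHT arrays at 5.30, 5.08 and 4.92; only leaving out the second enzalutamide plus Dex array kept its call, and adjusted p reached 0.246. The PER2 call was lost without the first DHT array or the third enzalutamide plus Dex array (adjusted p up to 0.064), and that for TEF without the second or the third DHT array or the first or the third enzalutamide plus Dex array (up to 0.0954).

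Against the same shares of 1.27% higher and 1.29% lower over all genes, further groups had 2 or 3 members called higher. Among the genes below, HSD11B2, DDIT4, FOXO3, DUSP1 and ERRFI1 are also on the glucocorticoid list. Of the metallothioneins, which bind zinc and copper, MT1X (0.52, adjusted p = 0.0002) and MT2A (0.42, adjusted p = 0.00337) were higher, 2 of 7 measured members, and both are also on the glucocorticoid list. Of 15 genes of steroid metabolism, HSD11B2 and the sterol sulfotransferase SULT2B1 (0.73, adjusted p = 0.000355) were higher and no member was called lower. The SULT2B1 call was lost with the mean of its probes (adjusted p = 0.226), and its other 2 probes differed by 0.06 and 0.21. Of 20 genes of insulin, PI3K and mTOR control, 3 were higher: DDIT4, FOXO3 and PIK3R1, of which PIK3R1 (0.37, adjusted p = 0.0393) kept its call on leaving out a single array only for the third DHT array (adjusted p up to 0.224). Of 23 genes of the immediate-early and MAP kinase feedback list, DUSP1, ERRFI1 and PHLDA1 (0.59) were higher and SPRED1 (-0.34) was lower. PHLDA1 lost its call without the first or second enzalutamide plus Dex array or the third DHT array (adjusted p up to 0.072), and SPRED1 without the second or the third array of either group (up to 0.0937).

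The growth and biosynthesis groups had 0 to 2 members called each, where 2.56% of all genes were called in either direction, and nothing is read from such counts. Of 25 measured S-phase genes, only CCNE1, cyclin E1 (-0.40, adjusted p = 0.00877), and the replicative helicase subunit MCM7 (-0.23, adjusted p = 0.0391) were called, both lower. Of 27 mitotic genes only the kinesin KIF20A was called (-0.44, adjusted p = 0.0128). No member was called among 19 MYC and ribosome-biogenesis genes, 22 sterol and fatty acid synthesis genes and 14 NF-kB and cytokine genes, whose medians lay between -0.05 and -0.01. CCNE1 lost its call without the third enzalutamide plus Dex array (adjusted p = 0.0529), MCM7 without any single array (up to 0.171), and KIF20A without the second DHT array or the second or the third enzalutamide plus Dex array (up to 0.0642). NCOA1, the steroid receptor coactivator SRC-1, was the only one of 16 receptor and cofactor genes called, at a log2 difference of -0.33 (adjusted p = 0.000305), a call lost with the mean of its probes (adjusted p = 0.156). The polyamine catabolism gene SAT1 was lower (-0.27, adjusted p = 0.0187), the only called member of 10, and lost its call without the first or the third DHT array or the third enzalutamide plus Dex array (up to 0.0901). The glucose transporter SLC2A3 was the only one of 23 nutrient uptake and glycolysis genes called, and PMEPA1 the only one of 14 TGF-beta and BMP feedback genes, both lower as given above. DDIT3, the stress factor CHOP, was the only one of 23 endoplasmic reticulum folding genes called (0.37, adjusted p = 0.00693).

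The effect of enzalutamide on either response was read from the groups with and without it. Between enzalutamide plus Dex and Dex alone, limma called 0 of 12895 genes (0%), with a smallest adjusted p of 0.109. An unadjusted p under 0.05 was found for 1050 genes, where 645 would be expected by chance. The absence of calls does not show that the levels are alike. SGK1 averaged 11.99 with enzalutamide plus Dex and 12.01 with Dex alone. Between enzalutamide with DHT and enzalutamide alone, 0 genes were called (0%), which again does not show that the levels are alike. An unadjusted p under 0.05 was found for 427 genes, fewer than the 645 expected by chance. TIPARP read 7.86, 7.97 and 7.85 with enzalutamide and DHT together, against 9.79, 9.84 and 9.91 with DHT alone. For TIPARP, TMPRSS2 and KLK2 the arrays with enzalutamide and DHT together overlapped those with enzalutamide alone. Enzalutamide alone differed from vehicle in 2 genes (0.0155%), ASF1A and PATE1, named after their values were seen, and neither was called between enzalutamide plus Dex and DHT.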

How the data were processed

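RNA from 24 cultures was measured on Illumina expression beadchips; RNA was extracted with a Qiagen kit, per the labels. The deposited scanner tables give, per the file headers, a signal intensity averaged over beads, a detection p-value, a bead count and a bead standard error (a score not used in the fits) for each of 47323 probes. The deposited normalized table was used only as an alternative; GenomeStudio is named in the submitters' processing notes, with its version not given in the sources used here. The number of arrays limits the precision, and p-values measure the spread between cultures of 1 line.

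Signals were background-corrected with limma 3.58.1 (R 4.3.3; normexp from detection p-values, offset 16), quantile normalized and taken to log2. A probe entered the fit if 3 or more arrays detected it at p under 0.05, which left 24607 probes, and 17590 of them carried 1 gene symbol. Over all probes, 30113 had 1 symbol in the platform annotation, 8 several and 17202 none, and 30074 matched RefSeq. The brightest probe stood for each of 12895 genes, 3586 of which had several. A linear model with 8 group means was fitted across all 24 arrays with empirical Bayes moderation, with Benjamini-Hochberg adjustment over all genes; errors are SE. Fold bounds ("at least") set the mean of the brighter group against the lowest detected signal. The procedure was tested on simulated data.

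Members and lists were chosen with earlier results of these data known. Named genes were the 15 largest called rises and falls without overlap, the 5 largest each way of the difference of responses and of genes called with enzalutamide plus Dex and not with DHT, up to 5 opposite genes, the 12 largest DHT changes with levels alike, up to 4 called members of each of 19 lists, and a fixed set of hormone targets. Alternatives changed the background, scaling, filter, probe choice, weights, replicate block and arrays included.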

Additional observations from a re-analysis of the deposited data

How the results depend on the processing

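No called difference of a named gene changed sign in the alternatives run. Between enzalutamide plus Dex and DHT, 216 genes were called with median scaling over all probes and 104 with only the 6 arrays fitted, and leaving out single arrays gave 238 to 283. The DHT response gave 290 genes with only its 6 arrays, and 406 to 441 without single arrays. The enzalutamide plus Dex response against enzalutamide gave 288 with median scaling over all probes, 168 with only its 6 arrays, and 305 to 352 without single arrays. The difference of responses gave 91 with median scaling over all probes, and 114 to 138 without single arrays. Enzalutamide plus Dex against Dex alone gave 1 call with median scaling over the genes tested (SLC14A1) and 1 with the authors' deposited normalized values (PTX4), and 0 to 1 without single arrays. Genes called in opposite directions numbered 2 with median scaling over the genes tested, 6 with array weights and 6 with the replicate block, and 1 to 4 without single arrays. Genes called with DHT and not with enzalutamide plus Dex numbered 230 to 376, those called the same way 159 to 178, and those called with DHT and alike 264 to 370, without single arrays; the median percentage was 44.5 to 50.4. Smaller fits hold fewer arrays; the cause of the other shifts was not tested.

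Titles carry serial numbers in 3 sets, used as a replicate block. Deviations of enzalutamide plus Dex and DHT arrays of the same set correlated at 0.114, -0.0126 and 0.121. Over all pairs of arrays from different groups, the mean correlation was 0.0771 within a set and -0.0385 between sets. The labels do not say what a set is, and the main fit does not include the sets. With the replicate block 404 genes were called between enzalutamide plus Dex and DHT (330 in the main fit) and 621 for DHT (548). Enzalutamide plus Dex against enzalutamide gave 542 (439), the difference of responses 190 (141), and enzalutamide plus Dex against Dex alone 0 (0).

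Of 75 genes named in the text or by the rule and called between the treatments, 20 lost the call without some single array, 18 under another alternative and 30 with only 6 arrays. Calls lost with median scaling over all probes were those of ABCC4, BDNF, CEBPD, DDC, ERRFI1, HERC5, MCM7, PER1, PER2, PHLDA1, PIK3R1, SAT1, SCNN1A, SPRED1 and TEF, and with the mean of the kept probes those of BDNF, MCM7, NCOA1, PDE9A, PER2, PIK3R1 and SULT2B1. Probes near background, such as KLK3 and PER1, limit what can be seen of weakly expressed genes.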
